A study of Drosophila melanogaster with 4 samples.

Results

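Many genes of Drosophila melanogaster are known only by a CG number, the running number that the genome project gave to a predicted gene before anyone had studied it. RNA was measured in adult heads in which the driver GMR-Gal4 switched on an activated form of the growth regulator Yorkie, yki S168A, and in heads that carried GMR-Gal4 alone as control. This account covers the CG-numbered genes that were far more abundant in the yki S168A heads. They are the symbols made of CG and digits whose lower yki S168A value was at least 10 CPM (counts per 1000000 counts of the library) and at least 6 times the higher control value. Of 7484 CG-numbered symbols among 16489 symbols in all, 44 (0.588%) met both thresholds, as did 0.322% of the symbols of other kinds. The rule leaves out CG10663 by name (31.1 and 31.3 CPM in yki S168A, 4.99 and 3.24 CPM in control), so 43 remained as members. The rule used all 4 libraries of the single contrast. The values of the members in that contrast are therefore a description of what was chosen, and no p-value is given for any of them.

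Yorkie is the transcriptional co-activator at the end of the Hippo pathway. The kinases of that pathway phosphorylate Yorkie and keep it out of the nucleus, and when they are inactive Yorkie enters the nucleus and acts with DNA-binding partners such as Scalloped to promote growth and survival of epithelial cells. The S168A change removes a phosphorylation site that restrains it. GMR-Gal4 is active mainly in the developing eye, while each library was made from whole heads, which also hold brain, fat body, muscle, cuticle-forming epidermis and blood cells. Several of the members described below belong to the immune system. In flies, the Toll pathway is started by a relay of secreted serine proteases in the blood and ends in the production of secreted peptides, chiefly by the fat body.

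There were 2 libraries of the genotype GMR>yki S168A and 2 of the genotype GMR-Gal4, each from 30 adult heads, and both genotypes carried the driver. The totals were 17311383 and 18108814 counts in yki S168A and 16817968 and 15738860 in control, so that 3 counts corresponded to 0.166 to 0.191 CPM. The labels give no sex, age or batch and do not say whether the 2 libraries of a group came from separate crosses. The spread behind each p-value is therefore that of these libraries alone and may be technical. What active Yorkie does cannot be told apart from what the inserted transgene or the stock's background does. In whole heads, fewer cells of a type and less RNA per cell cannot be told apart either. The yki gene itself was at 30.7 and 26.5 CPM in yki S168A heads and at 12.9 and 19.1 CPM in control heads (log2 fold change 0.95 ± 0.23, SE; adjusted p = 0.0112 by edgeR's quasi-likelihood test, and 0.138 without control replicate 1). Markers of midgut summed to 4.91 and 3.48 CPM in yki S168A and 4.34 and 2.35 CPM in control, with the digestive protease genes betaTry and Jon25Biii at 0 counts in every library. Those of male and female reproductive tissue stayed at or below 5.65 CPM in sum in each library. The 8 eye markers summed to 2774 and 2986 CPM in yki S168A heads and to 10142 and 9748 CPM in control heads. All 8 fell, meaning a lower call by edgeR at an adjusted p below 0.05, against 12.5% of all genes tested. The other marker counts below are of the same kind. The 7 fat body markers summed to 23778 and 15010 CPM in yki S168A and 64286 and 74414 CPM in control (5 fell), and the 5 neuron markers to 1682 and 2337 CPM against 3196 and 3468 CPM (3 fell). Most of the fat body sums came from the yolk protein genes Yp1, Yp2 and Yp3, and the labels give no sex. Yp2 alone had 10021 and 6188 CPM in yki S168A and 27168 and 33255 CPM in control. The fat body markers Lsp2 and bmm were not called. Blood cell markers summed to 477 and 633 CPM in yki S168A and 671 and 629 CPM in control (2 of 8 fell), and muscle markers to 1596 and 2964 CPM in yki S168A and 2881 and 2407 CPM in control (0 of 3 tested were called by edgeR, with adjusted p of 0.312 to 0.829).

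The members spanned a wide range of levels. Their mean CPM in yki S168A heads ran from 10.5 for CG14131 to 9454 for CG18067, with a median of 112, whereas in control heads it ran from 0.155 for CG45060 to 1224 for CG18067, with a median of 6.49. In yki S168A heads 7 members exceeded 1000 CPM, 15 lay between 100 and 1000 CPM and 21 lay below 100 CPM. In control heads 4 were below 1 CPM, 23 lay between 1 and 10 CPM, 11 between 10 and 100 CPM and 5 at 100 CPM or more. Most members were thus weakly but measurably present without the transgene. All 43 together took 3.42% and 3.01% of the counts of the yki S168A libraries, and 0.313% and 0.315% of those of the control libraries. The 4 members with the most counts, not scaled for length, were CG18067, CG6409, CG15021 and CG16772, and made up 2.23% and 1.91% of the counts in yki S168A and 0.209% and 0.200% in control.

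**Figure D1:**
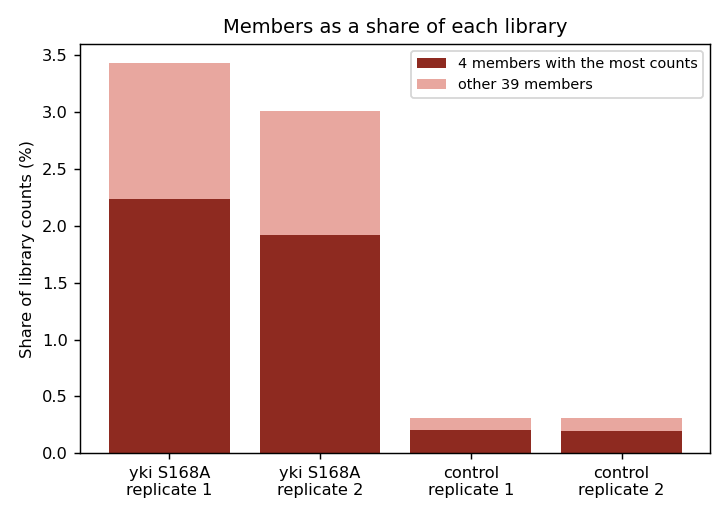
Share of library counts, in percent, taken by the 43 members in each of the 2 yki S168A and 2 control libraries, with the 4 members with the most counts in dark red and the other 39 in light red. The members take 3.42% and 3.01% of the yki S168A libraries and 0.313% and 0.315% of the control libraries.

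The ratio of the lower yki S168A to the higher control value was 20 or more for 8 members, between 10 and 20 for 12 and under 10 for 23. The median log2 fold change was 3.95, with a range of 2.80 for CG42808 to 9.50 for CG5909, where the median over all 10896 genes tested was 0.01. All 43 passed the filter on low counts, which the level that the rule required in the yki S168A libraries was enough to ensure. All 43 were also called higher at an adjusted p below 0.05, against 15.1% of all genes tested, as the rule made likely, and nothing is read from that count. With upper-quartile scaling the numbers of genes called over the whole table moved from 1647 higher and 1359 lower to 1276 higher and 1924 lower, and the median over all genes to −0.15.

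Agreement between the yki S168A libraries varied among the members. For 36 of the 43 the 2 values were within 1.5-fold of each other, and 29 were higher in replicate 1 and 14 in replicate 2. The most uneven was CG42792, whose replicate 1 value was 0.328 times that of replicate 2, followed in the opposite direction by CG8303 (1.76 times) and CG15674 (1.72 times). CG13606 and CG3770 lay at the other end, with 1036 and 1038 CPM for CG13606 and 112 CPM in both libraries for CG3770.

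**Figure D2:**
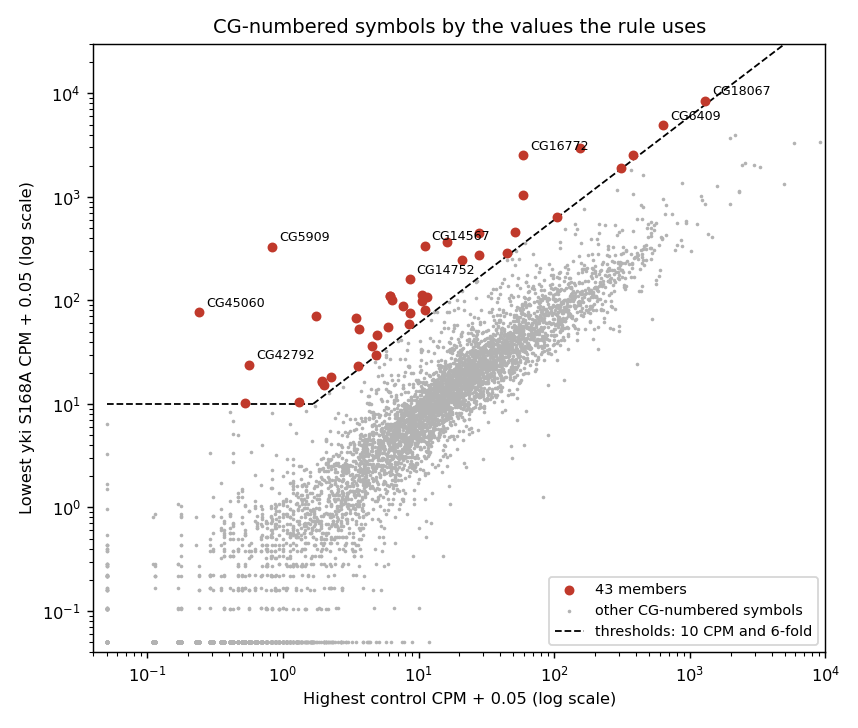
Each CG-numbered symbol by its higher control CPM on the horizontal axis and its lower yki S168A CPM on the vertical axis, both with 0.05 added and on log scales. The 43 members (red) lie on or beyond the dashed thresholds of 10 CPM and 6-fold that chose them, and CG5909 and CG45060 lie farthest above the fold threshold, at ratios of 427 and 404.

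The edge of the set was not marked by a gap. Just inside the fold threshold were CG42808 at a ratio of 6.08, CG2444 at 6.08 and CG30424 at 6.28. Just outside it were CG13422 and CG31869, both at 5.98, and CG17119 at 5.96. Near the level threshold, CG42866 (10.2 CPM in its lower yki S168A library) and CG14131 (10.3 CPM) were inside. CG14949 (8.32 CPM), CG12983 (8.03 CPM) and CG8172 (6.79 CPM) met the fold threshold only. When the rule was applied without yki S168A replicate 2, 61 genes were chosen, 18 of which did not meet it in the library left out. Without yki S168A replicate 1 the numbers were 50 and 7, without control replicate 1 they were 57 and 14, and without control replicate 2 they were 51 and 8. The others are in each case the 43 members, by construction.

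No table of protein sequences or domains was used here, so predicted classes could be taken only from the names and synonyms that RefSeq (Release 6 plus ISO1 MT) lists for each gene. For 11 members these include a name of their own that points to a protein or family, and they are described first, by role. The other 32, listed with no synonym or with clone names and record identifiers, are grouped by the length of their predicted protein, and no function is given for them. They include CG14131, whose listed synonym Pi3K68D is the symbol of another gene in the same table, and CG1136, whose listed synonym names no protein.

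Among the members, 3 carry serine protease names. CG5909 (FBgn0039495, chromosome 3R, 27161158 to 27162911, plus strand, build dm6) is listed as c-SP8 and SP8, a name given to secreted proteases with a regulatory clip domain. It had 330.4 and 381 CPM in yki S168A heads, against 0.773 and 0.254 CPM in control heads. The control values rest on 13 and 4 counts, and the yki S168A values on 5720 and 6906 counts. CG5909 was thus close to undetected in control heads and ranked 429th of all symbols in yki S168A heads. Its ratio of pooled CPM was 683 (95% exact binomial interval 426 to 1172, counting error only), and its log2 fold change of 9.50 ± 0.28 (SE) became 10.51 without control replicate 1 and 8.94 without control replicate 2.

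CG30287 (chromosome 2R, 21536894 to 21538015, minus strand) is listed as SP37 and SPH37, where SPH marks a protease-like protein that may lack catalytic activity. It had 87.7 and 99.8 CPM in yki S168A heads and 7.61 and 4.19 CPM in control heads (log2 fold change 4.09 ± 0.24, SE). CG11843 (chromosome 3R, 29054347 to 29055837, plus strand), listed as SP43, was rarer, with 22.2 and 16.5 CPM in yki S168A heads and 1.90 and 0.699 CPM in control heads (3.98 ± 0.42, and 4.88 without control replicate 1). An antisense RNA gene covers 86.3% of the exonic bases of CG11843. The strand setting of the counts is not given in the sources used here, so its reads cannot be assigned to a strand. The groups did not overlap for any of the 3, as the rule required (both yki S168A values lay above both control values in 26.9% of all genes tested), but the size of the difference varied from 3.98 to 9.50 on the log2 scale.

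A second set of 3 members has names from immunity. CG18067, now Bbd or bombardier, encodes a secreted protein needed for the action of the Bomanin immune peptides. It was the most abundant member (FBgn0034512, chromosome 2R, 20534245 to 20535835), with 10378 and 8529 CPM in yki S168A heads and 1287 and 1162 CPM in control heads (log2 fold change 3.06 ± 0.25, SE). By mean CPM it ranked 6th of all symbols in yki S168A heads and 123rd in control heads. CG33470, now BaraA1, encodes Baramicin A, a precursor that is cut into several peptides released into the blood after Toll activation. It had 579.9 and 453 CPM in yki S168A heads and 51.1 and 49.1 CPM in control heads (3.48 ± 0.18). RefSeq lists IM10 among the synonyms of BaraA1, and the tables hold a separate symbol IM10, at 973 and 738 CPM in yki S168A and 102 and 87.0 CPM in control. How the counting divided reads between these similar copies is not given, so the split of BaraA1 and IM10 is uncertain. CG30424, now cGlr2, encodes a receptor named for its likeness to cGAS, an enzyme that senses foreign nucleic acid and makes a cyclic dinucleotide that activates Sting. It was at 37.7 and 29.9 CPM in yki S168A heads and at 3.45 and 4.77 CPM in control heads (3.15 ± 0.27). The level of these immune-named genes differed by more than 2 orders of magnitude, while their fold changes were close to each other. Of the 7 fat body markers 5 were lower in the same yki S168A heads, against 12.5% of all genes tested, with sums made up mostly of yolk protein genes. The part of fat body in these values was not tested.

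The 5 remaining named members have unrelated names. CG9701 is listed as klotho, after a mammalian membrane protein with glycosidase-like domains, and had 147 and 101 CPM in yki S168A heads and 5.23 and 6.35 CPM in control heads. CG3814, now Lfg or Lifeguard, is named for a family of membrane proteins that counter cell death in mammals. It had 77.5 and 46.1 CPM in yki S168A and 3.21 and 4.89 CPM in control, and an antisense RNA gene (CR43468) covers all of its exonic bases. CR43468 had more counts, at 120 and 86.0 CPM in yki S168A and 27.4 and 27.7 CPM in control (log2 fold change 2.02). How reads were divided between them is not given, so the level and fold of CG3814 are uncertain. CG6891 is listed as Cotl1, the name of a mammalian actin-binding protein, coactosin-like. Its values were 117 and 108 CPM in yki S168A heads, against 7.14 and 11.4 CPM in control heads. CG6018, now gas, has an older name of the alpha-esterase type (alphaE1-O) and was at 16.2 and 18.3 CPM in yki S168A and 1.90 and 0.826 CPM in control. CG2444, listed with the older name DIGF-6, had 639 and 714 CPM in yki S168A and 89.9 and 105 CPM in control. Their log2 fold changes ran from 2.90 for CG2444 to 4.53 for CG9701, and the CG6018 value of 3.75 became 4.47 without control replicate 1.

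Of the 32 members without a protein name, 15 have a longest predicted protein of under 150 residues. CG45060 (FBgn0266430, chromosome X, 9868068 to 9868568, minus strand; 76 residues) had 1332 and 1711 counts in yki S168A libraries and 2 and 3 counts in control libraries, or 76.9 and 94.5 CPM against 0.119 and 0.191 CPM. The ratio was 559 (95% exact binomial interval 239 to 1724). CG42792 (chromosome 2L, 15864929 to 15865461; 88 residues) had 413 and 1318 counts in yki S168A and 0 and 8 counts in control, where 0 counts allow up to 0.178 CPM. Both were at or near the limit of detection in control heads, so that the fold is poorly bounded. The CG42792 log2 fold change of 7.68 ± 0.78 (SE) was 6.65 without control replicate 1 and 6.68 without yki S168A replicate 2, and its ratio of 199 had an interval of 101 to 461. CG14752 (chromosome 2R, 8590497 to 8591948; 112 residues) had 160.1 and 296 CPM in yki S168A and 4.46 and 8.51 CPM in control (log2 fold change 5.25 ± 0.34).

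At the abundant end of these short genes were CG34227 (2991 and 2562 CPM in yki S168A, 283 and 381 CPM in control) and CG42808 (2054 and 1881 CPM in yki S168A, 299.5 and 309 CPM in control). CG13606 followed at 1036 and 1038 CPM in yki S168A, against 58.9 and 48.0 CPM in control. CG16978 was at 467 and 452 CPM in yki S168A and 27.3 and 27.7 CPM in control, and CG13117 at 341 and 285 CPM in yki S168A and 45.1 and 42.7 CPM in control. That the groups lie far apart in these 5 genes follows from the rule. CG42662 and CG30080 shared identical counts in all 4 libraries, with 145 and 111 CPM in yki S168A and 5.53 and 6.10 CPM in control. They occupy the same positions on chromosome 2R (15698726 to 15701696) and are 1 measurement, so the 43 symbols hold 42 distinct count profiles. The last 5 of the group were CG13965, CG13510, CG30154, CG3604 and CG42866, with means of 13.4 CPM (CG42866) to 71.5 CPM (CG13965) in yki S168A and 0.333 CPM (CG42866) to 5.84 CPM (CG13510) in control. All exonic bases of CG13510 are also annotated to CG42565 and CG13511 on the same strand, so its reads may be shared with them.

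The other 17 members without a protein name have predicted proteins of 150 residues or more. CG16772 (FBgn0032835, chromosome 2L, 19962679 to 19963844, plus strand; 311 residues) had 3305 and 2524 CPM in yki S168A heads, against 48.5 and 59.2 CPM in control heads (log2 fold change 5.87 ± 0.25, SE). It ranked 39th of all symbols in yki S168A heads and 2398th in control heads. CG6409 was higher in level, at 5721 and 4928 CPM in yki S168A and 598 and 634 CPM in control, but with a smaller log2 fold change of 3.22 ± 0.22. CG15021 (chromosome 3L, 4436721 to 4438311; 420 residues) had 2935 and 3156 CPM in yki S168A and 155 and 143 CPM in control (4.46 ± 0.20). These 3 genes and CG18067 (Bbd) are the 4 that made up most of the share of the libraries given above.

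CG14567 (chromosome 3L, 21737706 to 21738430, minus strand; 190 residues) had 468 and 337 CPM in yki S168A and 11.0 and 10.9 CPM in control (log2 fold change 5.31 ± 0.22). CG15674 had 121 and 70.7 CPM in yki S168A and 1.43 and 1.72 CPM in control (6.04 ± 0.35), with the antisense RNA gene CR42547 opposite 78.1% of its exonic bases. CG6962, the longest predicted protein of the set at 767 residues, had 428 and 368 CPM in yki S168A and 16.2 and 14.2 CPM in control (4.82 ± 0.18). For these the lowest yki S168A value was 22.8 to 41.2 times the highest control value. The other 11 of this group, CG6472, CG3770, CG1136, CG12268, CG17350, CG4757, CG18473, CG14131, CG8303, CG8501 and CG18259, had log2 fold changes of 3.19 (CG18259) to 4.10 (CG4757). Their mean levels ran from 10.5 CPM (CG14131) to 292 CPM (CG1136) in yki S168A heads and from 1.17 CPM (CG14131) to 21.8 CPM (CG1136) in control heads. The value for CG4757 was 4.93 without control replicate 2, and that for CG8303 was 4.55 without the same library, against 3.95 with all libraries.

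**Figure D3:**
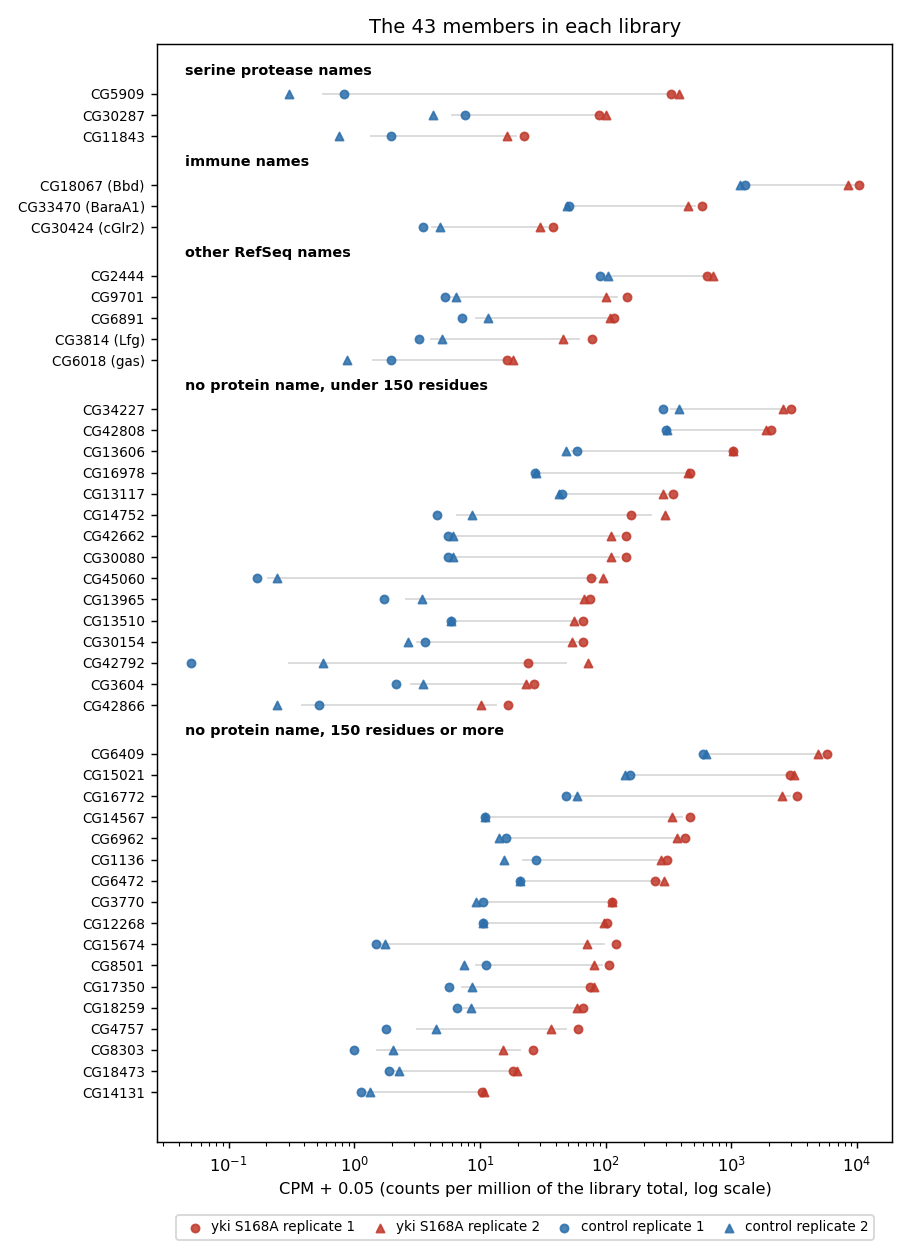
CPM plus 0.05 of each of the 43 members in every library (log scale; red, yki S168A; blue, control; circles, replicate 1; triangles, replicate 2; grey lines join the group means), grouped by the kind of name and, without a protein name, by predicted length. The red points lie to the right of the blue points in every row because the members were chosen that way, and the rows differ in level from CG14131 (10.5 CPM on average in yki S168A heads) to CG18067 (9454 CPM).

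Levels of different genes can be compared only per length. Scaled to exonic length, the highest mean in yki S168A heads was that of CG18067 (Bbd), at 6179 CPM per kb, followed by CG34227 at 5725, CG6409 at 3448, CG42808 at 3074, CG16772 at 2662, CG15021 at 1983 and CG16978 at 1124 CPM per kb. In control heads the same scale gave 800.2 CPM per kb for CG18067, 684 for CG34227, 476 for CG42808 and 399 for CG6409. The lowest level in yki S168A heads was 4.15 CPM per kb, for CG14131. Short genes such as CG34227 and CG42808 therefore stood higher among the members per length than by CPM.

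The rule did not use the length of the predicted protein. The members had a median length of 245 residues, against 388 residues for the 4794 other CG-numbered protein-coding genes tested and 512 for the 5246 protein-coding genes tested under other symbols. Of the 43 members 16 (37.2%) were under 150 residues, compared with 13.6% of the other CG-numbered genes. Only 2 members, CG6962 and CG14131, exceeded 600 residues, whereas 1271 of the 4794 other CG-numbered genes did. Leaving out CG42662, whose counts duplicate those of CG30080, gave a median of 251 residues and 15 of 42 genes (35.7%) under 150. The 612 CG-numbered genes that were called higher but are not members had a median of 330.5 residues and 17.8% under 150. In 9 members (20.9%) the longest coding transcript had a single exon, compared with 11.9% of the other CG-numbered genes. These are descriptions of predicted lengths in the Ensembl annotation, and the 150-residue limit was chosen after the lengths were seen.

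**Figure D4:**
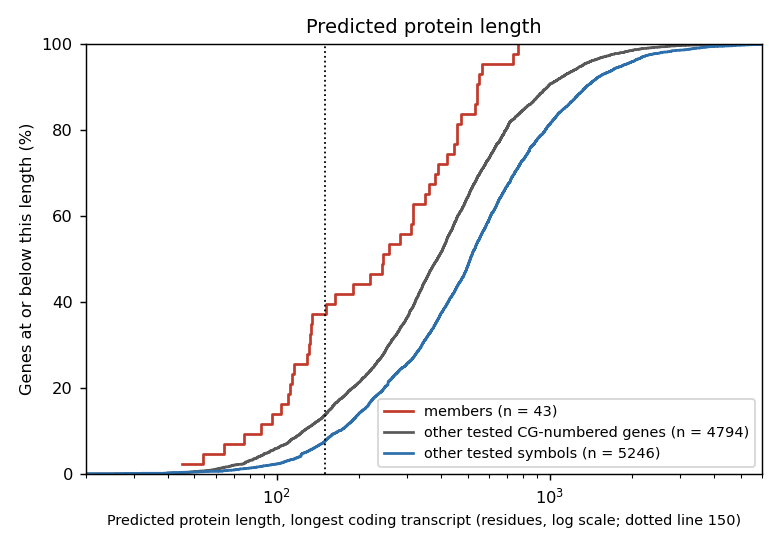
Cumulative share of genes, in percent, by predicted protein length in residues (log scale) for the 43 members (red), the 4794 other tested CG-numbered genes (grey) and the 5246 tested genes under other symbols (blue). At the dotted line of 150 residues the members stand at 37.2% and the other CG-numbered genes at 13.6%.

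The members were spread over the 5 large chromosome arms. Arm 2R held 18 of them (41.9%), compared with 20.1% of the tested CG-numbered genes, 2L held 8, 3R 7, 3L 6 and X 4. The 18 include both CG42662 and CG30080, which are 1 measurement. Several members lay next to each other. CG42866, CG13965 and CG16772 are consecutive on 2L between 19961224 and 19963844, with gaps of 72 and 326 bp, and had 16.6 and 10.2, 75.7 and 67.3, and 3305 and 2524 CPM in yki S168A heads, in that order. CG30154 lies 310 bp upstream of CG18067 (Bbd) on 2R, both on the plus strand, and had 66.3 and 53.5 CPM in yki S168A heads and 3.57 and 2.61 CPM in control heads. CG6891 and CG18259 on X run towards each other and overlap by 81 bp at their ends, which is 5.18% of the exonic bases of CG6891. CG3770 and CG30424 (cGlr2) are 18638 bp apart on 2R with 2 other protein-coding genes between them. Genes that lie together in this way are not independent observations.

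The genes next to the members were not used by the rule and could be tested. The nearest tested gene that is not a member and does not overlap it was taken on each side, which gave 76 different genes at 38 to 55799 bp. Of these, 19 (25%) rose and 7 (9.21%) fell in edgeR's quasi-likelihood test at the same threshold, against 15.1% and 12.5% of all genes tested. Their median log2 fold change was 0.09, where that of all genes was 0.01, and 50 of the 76 were not called. Of the 43 members 20 had at least 1 neighbour that rose and 23 had none. Members that lie together share neighbours, as CG16772, CG42866 and CG13965 share CG10680, and each was counted. The same share over all genes was not computed, so nothing is read from these counts. The number that fell was 12 with upper-quartile scaling, 11 with the replicate block, 4 without control replicate 1 and 3 without control replicate 2.

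The largest rises among the neighbours were in a few places. Cpr49Ac, a structural cuticle protein gene 2146 bp from CG8501 on 2R, had 606 and 1011 CPM in yki S168A heads and 14.1 and 9.47 CPM in control heads (log2 fold change 6.20 ± 0.29, SE; edgeR adjusted p = 1.17e-07). Beside CG5909, 1377 bp away, lies grass, which encodes a clip-domain protease of the relay that activates Toll. Its values were 312 and 297 CPM in yki S168A heads and 47.9 and 51.0 CPM in control heads (2.73 ± 0.15, adjusted p = 3.34e-07). Ser7, another serine protease gene, lies 998 bp from CG45060 and had 767 and 654 CPM in yki S168A heads, against 76.0 and 75.1 CPM in control heads (3.34 ± 0.16, adjusted p = 1.62e-07). On the other side of CG45060, CG45061 rose as well (3.58 ± 0.73, adjusted p = 0.00368) at 4.27 and 2.71 CPM in yki S168A and 0.238 and 0.381 CPM in control. RefSeq lists the same 4 older CG numbers as synonyms of CG45060 and CG45061.

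CG18278, next to CG33470 (BaraA1), had 203 and 149 CPM in yki S168A and 26.2 and 22.2 CPM in control (log2 fold change 2.97 ± 0.19, edgeR adjusted p = 1.13e-06). CG30059, which overlaps CG33470, had similar values, 205 and 153 CPM in yki S168A and 27.0 and 18.7 CPM in control. Whether CG18278 and CG30059 are separate measurements was not tested. IM10 matched no gene record with a position, so it could not be taken as a neighbour. CG6961, beside CG18259, had 30.5 and 24.4 CPM in yki S168A and 4.94 and 5.46 CPM in control (2.51 ± 0.26, adjusted p = 3.45e-05). Or47a, an odorant receptor gene beside CG34227, and CG8736, beside CG14752, also rose (2.06 ± 0.43, adjusted p = 0.00427, and 1.39 ± 0.20, adjusted p = 0.000452). The list of the 10 largest is completed by CG30286, next to CG30287 and, like it, listed as SP37, and by CG44475, next to CG42792. Both had few counts. CG30286 did not pass without yki S168A replicate 2 (adjusted p = 0.142), without control replicate 1 (0.159) or without control replicate 2 (0.122), and CG44475 did not pass with DESeq2 (adjusted p = 0.365), without yki S168A replicate 2 (0.654), without control replicate 1 (0.0904), without the filter on low counts (0.0613) or with the older quasi-likelihood fit (0.0502). At the other end were genes beside highly raised members that were not called, such as CG34051 in the 2L run, with 4.91 and 3.87 CPM in yki S168A and 6.78 and 8.64 CPM in control (adjusted p = 0.176), while CG10680 on the other side of that run rose (1.18 ± 0.15, adjusted p = 0.000169).

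**Figure D5:**
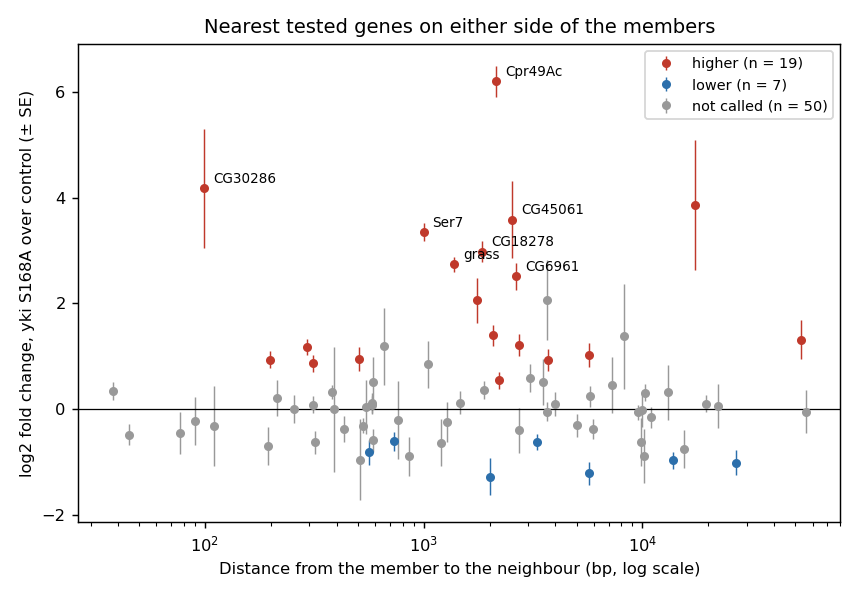
Log2 fold change (yki S168A over control, ± SE) of the 76 nearest tested genes beside the members against their distance in bp (log scale), in red for the 19 called higher, blue for the 7 called lower and grey for the 50 not called. Cpr49Ac stands highest, at 6.20, and the median neighbour lies at 0.09.

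In all, 13 members shared exonic bases with another annotated gene, 10 of them with a gene on the opposite strand. The overlapping genes that have counts and are not members numbered 10, and all 10 were called higher, against 15.1% of all genes tested. They share bases with genes that were chosen for being high, so nothing is read from that count. Among them were sad, which encodes a cytochrome P450 of ecdysteroid synthesis and shares 2.13% of the exonic bases of CG6962, and CG30059, opposite 23.5% of those of CG33470 (BaraA1). The values of sad were 952 and 814 CPM in yki S168A and 31.5 and 29.0 CPM in control (log2 fold change 4.98, edgeR adjusted p = 3.27e-08). CG30059 had 205 and 153 CPM in yki S168A and 27.0 and 18.7 CPM in control (3.08, adjusted p = 1.83e-06). Overlapping genes can share reads over their common bases, so these may not be fully separate measurements of the locus. For sad the common stretch is 53 bp.

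The remaining comparison concerned named genes of protein classes thought likely for the members, and of pathways taken as context. Several of these lists, such as cuticle proteins, Osiris genes and JAK/STAT genes, match no name that a member carries. The lists were chosen with earlier results of these data known, so their shares are a description. The 13 lists hold 212 tested genes that are not members, of which 82 (38.7%) were higher and 26 (12.3%) lower, against 15.1% and 12.5% of all genes tested. The 26 became 14 when either control library was left out. Among serine proteases of immunity and patterning, 6 of 14 tested genes rose and 1 fell. Ser7 and grass (above) led, followed by scaf, a protease homologue, at 658 and 952 CPM in yki S168A and 137 and 184 CPM in control (log2 fold change 2.43 ± 0.21, SE; edgeR adjusted p = 8.89e-06), and Tequila fell (−0.78 ± 0.14, adjusted p = 0.00219). The list's median log2 fold change was 0.51, where that of all genes was 0.01. Only 2 of 34 digestive and other trypsin-like protease genes reached the counts needed for the test, Try29F and Jon74E, and neither passed (adjusted p = 0.217 and 0.234).

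Serpins, which inhibit serine proteases, had 9 of 16 genes higher and 1 lower, with a median of 1.16. Over all genes tested 15.1% were higher and 12.5% lower, the shares to set beside this list and the Toll and Imd list. Spn47C had 470 and 449 CPM in yki S168A heads and 57.1 and 46.8 CPM in control heads (log2 fold change 3.25 ± 0.16, edgeR adjusted p = 1.77e-07), and Spn27A, an inhibitor of the melanization and Toll proteases, was at 503 and 441 CPM against 120 and 98.7 CPM (2.22 ± 0.16, adjusted p = 2.41e-06). Spn77Ba rose by less (1.47 ± 0.15, adjusted p = 3.31e-05). The 1 serpin called lower, Spn85F, had 0 and 2 counts in yki S168A and 29 and 11 in control (adjusted p = 0.0328, and 0.151 without yki S168A replicate 1, 0.0759 without control replicate 2 and 0.0739 without the filter on low counts). Of 28 Toll and Imd pathway genes 12 were higher, with a median of 0.49, and no call was lower except for 2 without yki S168A replicate 1 or with the replicate block. The peptidoglycan receptor gene PGRP-SA led, at 835 and 489.7 CPM in yki S168A and 24.8 and 25.9 CPM in control (4.82 ± 0.26, adjusted p = 3.43e-07), followed by PGRP-LB, an enzyme that degrades peptidoglycan (3.60 ± 0.21, adjusted p = 5.17e-07), and the transcription factor gene Rel (1.55 ± 0.17, adjusted p = 4.38e-05).

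Among structural cuticle protein genes, 19 of 57 (33.3%) were higher and 10 (17.5%) lower, and among chitin-binding and chitinase genes 11 of 29 (37.9%) were higher and 2 (6.90%) lower (17 higher with the replicate block). Over all genes tested the shares were 15.1% and 12.5%. Pcp, a pupal cuticle protein gene, was at 66.9 and 29.4 CPM in yki S168A and 0.416 and 0.635 CPM in control (log2 fold change 6.62 ± 0.55, edgeR adjusted p = 6.71e-06). The chitin-binding gene obst-A had 826 and 863 CPM in yki S168A and 78.9 and 69.3 CPM in control (3.62 ± 0.16, adjusted p = 7.63e-08). The 10 lower cuticle genes became 5 without control replicate 1 and 6 without control replicate 2 or yki S168A replicate 1, and the 2 lower chitin genes became 0 without control replicate 2. Ccp84Ag itself fell (−2.59 ± 0.34, adjusted p = 0.000214). Osiris genes, whose products are membrane proteins of cuticle-forming cells, had 2 of 8 higher, Osi9 (3.78 ± 0.28, adjusted p = 2.41e-06) and Osi6 (1.61 ± 0.15, adjusted p = 1.8e-05), and 1 lower, Osi19 (−2.29 ± 0.50, adjusted p = 0.00617).

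The signaling lists had more genes higher than lower. Over all genes tested 15.1% were higher and 12.5% lower, and each of these lists, like the lipase and lectin lists, holds few genes. For Yorkie targets and partners 9 of 17 genes were higher and 1 was lower. The higher genes were led by kibra (log2 fold change 0.97 ± 0.15, edgeR adjusted p = 0.000584), ds (1.99 ± 0.31, adjusted p = 0.000653) and jub (1.13 ± 0.18, adjusted p = 0.000935). The lower gene, dm, was at 286 and 277 CPM in yki S168A and 539 and 516 CPM in control (−0.80 ± 0.14, adjusted p = 0.00159). The whole list summed to 1103 and 1072 CPM in yki S168A and 1109 and 1074 CPM in control. For JNK and AP-1 genes 5 of 12 were higher, and for JAK/STAT genes 7 of 13 were higher and 1 lower (2 lower without control replicate 2, with the replicate block, with DESeq2, and with RLE or upper-quartile scaling). TotM, a secreted stress-response gene, was at 284 and 289.9 CPM in yki S168A and 80.3 and 65.3 CPM in control (2.09 ± 0.15, adjusted p = 2.53e-06). TotA, of the same family, went the other way, at 63.5 and 61.0 CPM in yki S168A and 163 and 113 CPM in control (−1.04 ± 0.18, adjusted p = 0.00142). Ets21C, a transcription factor gene downstream of JNK, was at 441 and 406 CPM against 122 and 109 CPM (1.98 ± 0.15, adjusted p = 2.92e-06). Lipase genes (1 of 9 higher, 5 lower) and C-type lectin genes (1 of 6 higher, 3 lower) had more lower than higher calls. Of the 5 lower lipase genes, Yp1, Yp2 and Yp3 are yolk protein genes that also stand among the fat body markers above, and the other 2 are Lip1 and Lip2. The lipases called lower became 3 without yki S168A replicate 2, 2 without control replicate 1 and 1 without control replicate 2, and the lectins 1 without yki S168A replicate 2 or control replicate 1. The single takeout gene tested, to, was lower in yki S168A heads (−0.79 ± 0.26, adjusted p = 0.0406, and 0.109 without yki S168A replicate 1, 0.106 without control replicate 1 and 0.240 without control replicate 2).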

How the data were processed

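Whole-head RNA was sequenced in 2 libraries of GMR>yki S168A and 2 of GMR-Gal4, prepared with a SENSE mRNA kit per the labels. The authors deposited 1 table of raw read counts per gene symbol for each library, on the dm6 build per the submitters' processing notes. Which aligner, counter and annotation were used is not given in the sources used here, nor is the handling of strand or of multiply mapped reads. No unique molecular identifiers are named, so intervals and limits cover counting error only.

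The 37 lines that repeat 17 symbols were summed, which left 16489 symbols, and 16287 of them (98.8%) matched the Ensembl annotation (dm6 coordinates) by their current name or by an older name in RefSeq. CPM are counts per 1000000 counts of the library. edgeR 4.0.16 (R 4.3.3) was run on the counts of all 4 libraries with filterByExpr, TMM scaling, the current form of glmQLFit and glmQLFTest, with Benjamini-Hochberg adjustment over 10896 genes and a threshold of 0.05. The biological coefficient of variation was 20.7%. On simulated counts for 10896 genes, the test recovered 41 of 100 genes changed by 2-fold and 100 of 100 changed by 4-fold, with 5 false calls among 146. The simulation gave every gene the same coefficient of variation and changed far fewer genes than were called here. Its rates therefore need not hold for the real counts.

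The members and lists were chosen with earlier results of these data known. Named genes were all members, up to 4 genes of each list (the 3 with the smallest p and the first called the other way), the 10 called neighbours with the largest change, and the genes next to each threshold. A few others, such as IM10, sad, CG30059, CG34051 and CG10680, were chosen after their values were seen. Alternatives were other scalings, no filter, DESeq2 1.42.0, a replicate block, the older quasi-likelihood fit (chosen after seeing the data) and leaving out each library. Comparison of protein sequences, closest relatives by sequence and promoter motifs were planned and are not reported, since no sequence was used here.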

Additional observations from a re-analysis of the deposited data

How the results depend on the processing

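None of the 52 named tested genes that are not members changed sign in the alternatives run, and the sign of the members is fixed by the rule. The rule chose 84 genes at a fold minimum of 4, and 50 to 61 when 1 library was left out, against 43. Leaving out 1 library gave 983 to 1688 genes higher (1647 with all 4) and 648 to 1435 lower (1359). It gave 14 to 20 neighbours higher (19), 3 to 9 neighbours lower (7), 70 to 88 list genes higher (82) and 14 to 21 list genes lower (26), and a median member log2 fold change of 3.72 to 4.0 (3.95). That median was 3.79 with upper-quartile scaling, which also gave 12 neighbours lower. The cause of these shifts was not tested, except that a fit on 3 libraries has fewer samples. The replicate numbers name libraries only: same-numbered libraries deviated from their group means with a correlation of 0.0184. With the replicate block 1903 genes were higher and 1723 lower, with 11 neighbours lower. Of these genes, 8 lost their call in at least 1 alternative, in 20 instances. Among members, 76 values in 30 genes moved by more than the SD between their yki S168A libraries. That SD rests on 2 libraries, so the count flags small shifts in even members and passes large ones in uneven members. CG13606 was flagged for a change from 4.386 to 4.384 without the filter on low counts. CG42792 was not flagged for one from 7.68 to 6.65 without control replicate 1. No value was computed for CG42792 or CG44475 without control replicate 2, or for Spn85F, Muc55B or lectin-46Ca without yki S168A replicate 2, because the remaining library had 0 counts. Depth limits the folds of CG5909, CG45060, CG42792 and CG42866, whose control counts were few.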

Other observations

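The same thresholds were met by 29 of 9005 symbols that are not CG numbers (0.322%), against 44 of 7484 CG-numbered symbols (0.588%), and these values too are a description of what the thresholds chose. Several are secreted immune peptides. IM23 had 1511 and 1542 CPM in yki S168A heads and 33.2 and 27.5 CPM in control heads. IM1 had 3847 and 3547 CPM against 156 and 156 CPM, and IM3 had 9656 and 9786 CPM against 1554 and 1498 CPM. Not all peptide genes rose. Among the neighbours of members, CG16712, now IM33, had 1684 and 1111 CPM in yki S168A heads and 2273 and 2287 CPM in control heads. Listericin had 549 and 653 CPM against 692 and 993 CPM, and neither was called by edgeR. Of the 7 fat body markers 5 were lower in the same yki S168A heads, against 12.5% of all genes tested. The part of fat body in the values of these peptide genes was not tested. The gene ple, which encodes tyrosine hydroxylase of the dopamine pathway used in cuticle tanning, had 2339 and 2307 CPM in yki S168A and 138 and 124 CPM in control. Tig, which encodes the matrix protein Tiggrin, had 888 and 832 CPM in yki S168A and 66.1 and 69.1 CPM in control. The gene ptc, for the Hedgehog receptor, had 72.7 and 85.5 CPM in yki S168A and 11.5 and 10.5 CPM in control.

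The eye color gene w, which many transgenes carry as a marker, had 57.1 and 48.9 CPM in yki S168A heads and 6.36 and 6.35 CPM in control heads. The highest ratio of the lower yki S168A to the higher control value was that of Tsp42Eb, a tetraspanin gene, with 24.7 and 12.8 CPM in yki S168A and 0.0595 and 0 CPM in control.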
